A study of Fagopyrum tataricum with 12 samples.

Results

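Phenylalanine ammonia-lyase (PAL) is the enzyme that removes ammonia from phenylalanine to give cinnamate, the first step of the phenylpropanoid pathway. In plants it is encoded by a small gene family, and its product is shared between flavonoids, lignin and other phenolic compounds. Tartary buckwheat (Fagopyrum tataricum) is a grain crop known for its high content of rutin, a flavonol glycoside made from this route. The PAL genes were taken as all genes whose deposited description starts with the enzyme's name, which gave 4 of 26750 genes. All 4 passed the filter on low counts that left 22063 genes for testing.

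The series holds 12 RNA-seq libraries from seedlings, labelled as leaf and stem, of the cultivar Dingku1, which the submitters call relatively resistant to drought. Seedlings grew under long days to the 2-leaf stage in hydroponic boxes. Control seedlings in Hoagland's nutrient solution were taken at 0 h (3 libraries), and others after 2, 4 or 8 h in 20% PEG-6000 (3 libraries each), an osmotic agent used to withhold water from roots. The study asks how flavonoid synthesis is regulated under drought, and the comparison made here is that of the 4 paralogues over these times. All comparisons with the control share its 3 libraries, and since untreated seedlings were sampled only at 0 h, time in PEG cannot be told apart from time of day. Nothing in the labels ties replicates to separate plants or pools, so p-values measure only the spread between these samples, which may be technical.

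Counted reads per library ranged from 30468104 to 37395814, and the common biological coefficient of variation of the fit was 4.90%. The leaf label was matched by all 17 chlorophyll a-b binding protein genes, which had counts in every group and summed to 36196 to 39151 CPM in the control, while the 4 Casparian strip genes of the root endodermis summed to at most 2.69 CPM in any library. CPM here are a gene's reads relative to the library's total after TMM scaling, which sets libraries to a common level from the bulk of their genes. Marker sums moved with time in PEG. The chlorophyll a-b binding sum fell to 20065 to 21740 CPM at 2 h, 18094 to 18331 CPM at 4 h and 3496 to 3718 CPM at 8 h, and 14 seed storage genes summed to 67.8 to 76.0 CPM at 0 h (10 of 14 with a count) and 184 to 196 CPM at 8 h (13 of 14). A secondary wall list held 18 genes, namely cellulose synthases CESA4, CESA7 and CESA8 and all genes with a symbol starting with IRX. Their sum, not split by gene, was 143 to 150 CPM at 0 h, 148 to 161 CPM at 2 h, 151 to 153 CPM at 4 h and 263 to 278 CPM at 8 h. In mixed tissue, fewer cells of a type and less RNA per cell cannot be told apart, and the part of these shifts in the PAL results was not tested.

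The 4 PAL genes lie on 3 chromosomes, as their identifiers give them. PAL3 (evm.TU.Ft5.1292) is on chromosome 5 and has a coding length of 1713 bases. A gene with the symbol PAL, evm.TU.Ft6.641, is on chromosome 6 and measures 1806 bases. TPA1 (evm.TU.Ft8.3037) and a second gene with the symbol PAL, evm.TU.Ft8.3038, carry consecutive numbers on chromosome 8 and measure 1569 and 2067 bases. The symbols are those deposited with the counts. The lengths were worked out from the deposited counts and FPKM and are taken as coding lengths. Base positions and the assembly are not given in the sources used here. Whether the authors' counting could split reads between similar PAL copies is not stated, so values of the consecutive pair are uncertain to that extent.

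The 4 paralogues followed 4 courses. PAL3 rose at 2 h and stayed above 2-fold at every time in PEG. The chromosome 6 gene, the most abundant in the control, rose little at 2 and 4 h and then doubled by 8 h (2.06-fold). TPA1 rose 2.32-fold at 2 h and returned most of the way to its control level by 8 h. The gene evm.TU.Ft8.3038, the least abundant, rose 1.35-fold at 2 h and was not called at 8 h.

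**Figure D1:**
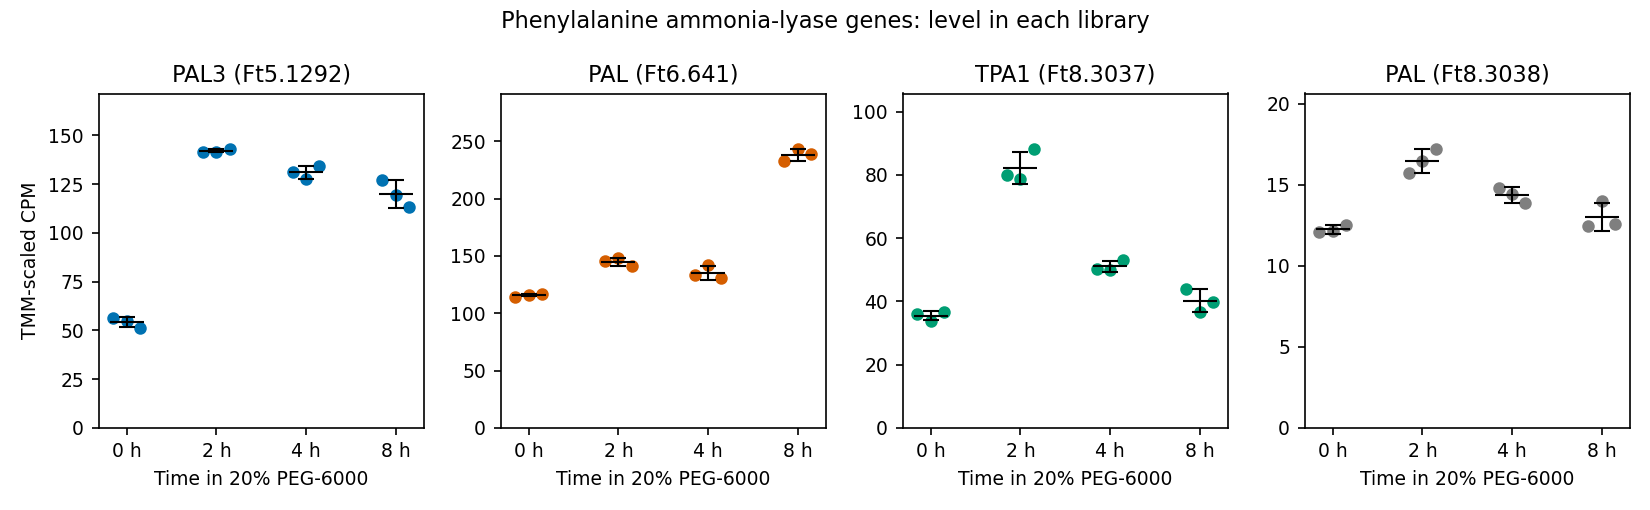
Level of each PAL gene in TMM-scaled CPM (vertical axes, each starting at 0 with its own scale) in the 12 libraries by time in 20% PEG-6000; points are libraries, the long bar is the mean of 3 and the whiskers are 1 SD. PAL3 sits between 113 and 143 CPM at all 3 PEG times, the chromosome 6 gene is highest at 8 h (233 to 243 CPM) and TPA1 at 2 h (78.8 to 88.1 CPM).

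PAL3 stood at 56.2, 54.9 and 51.2 CPM in the 3 control libraries, and at 142, 142 and 143 CPM after 2 h. It stood at 131, 127 and 134 CPM after 4 h and at 127, 119 and 113 CPM after 8 h. All 9 PEG libraries lay above all 3 controls. The log2 change against 0 h was 1.39 at 2 h (SE 0.0447, adjusted p = 2.07e-26), 1.28 at 4 h (SE 0.0448, adjusted p = 1.95e-25) and 1.15 at 8 h (SE 0.0448, adjusted p = 5.71e-24), by the edgeR quasi-likelihood test. Folds were 2.63, 2.42 and 2.22. Within the PEG series PAL3 fell by 0.24 on the log2 scale from 2 to 8 h (edgeR adjusted p = 4.59e-06), and by 0.11 with scaling by library totals alone (adjusted p = 0.0187). The smaller steps from 2 to 4 h (-0.12) and from 4 to 8 h (-0.13) passed the threshold, but the latter turned to 0.09 and lost its call when libraries were scaled by their totals alone, and was lost at -0.09 without 8 h replicate 3 (adjusted p = 0.105). The former was lost without 2 h replicate 3 (-0.11) or 4 h replicate 2 (-0.10).

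The chromosome 6 gene, evm.TU.Ft6.641, stood at 114, 116 and 117 CPM in the control and at 145, 148 and 141 CPM after 2 h. It was at 133, 142 and 131 CPM after 4 h and at 233, 243 and 239 CPM after 8 h. Its 8 h libraries lay above every other library, and the 2 and 4 h libraries overlapped with each other but not with the control. The log2 change against 0 h was 0.32 at 2 h (SE 0.0388, adjusted p = 2.17e-09), 0.22 at 4 h (SE 0.0390, adjusted p = 3.08e-06) and 1.04 at 8 h (SE 0.0385, adjusted p = 9.52e-25; edgeR). Between 4 and 8 h the gene rose by 0.82 (SE 0.0383, edgeR adjusted p = 5.21e-21), and 8 h exceeded 2 h by 0.72 (adjusted p = 2.26e-19). The secondary wall sum was also higher at 8 h than at 4 h. Of 52 tested genes of the lignin monomer steps, however, 33 were lower and 9 higher over that step. Their median log2 change was -0.62, beside 0.04 for all tested genes, of which 31.7% were lower and 33.8% higher. The part of either in the rise of the chromosome 6 gene was not tested. The step from 2 to 4 h (-0.10, edgeR adjusted p = 0.0285) was no longer called without 2 h replicate 1 (-0.10) or 2 (-0.08), or without 4 h replicate 1 (-0.09) or 3 (-0.08).

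TPA1 stood at 36.0, 33.8 and 36.7 CPM in the control and at 79.8, 78.8 and 88.1 CPM after 2 h. It was at 50.3, 49.9 and 53.1 CPM after 4 h and at 44.0, 36.7 and 39.9 CPM after 8 h. The 2 h libraries lay far above all others, and the lowest 8 h library exceeded the highest control by less than 0.1 CPM. The log2 change against 0 h was 1.21 at 2 h (SE 0.0561, adjusted p = 3.02e-21), 0.53 at 4 h (SE 0.0576, adjusted p = 1.82e-10) and 0.18 at 8 h (SE 0.0581, adjusted p = 0.00574; edgeR). The gene fell by 0.69 from 2 to 4 h (adjusted p = 1.07e-13) and by 0.34 from 4 to 8 h (adjusted p = 1.87e-06, edgeR). With scaling by library totals alone the latter was -0.13 (edgeR adjusted p = 0.0438), and in both limma fits of log2 FPKM it was -0.13 and not called. The 8 h value rests on few libraries: without 8 h replicate 1 it was 0.11 and not called (adjusted p = 0.1, edgeR), and it was 0.33 with scaling by library totals alone.

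The gene evm.TU.Ft8.3038 stood at 12.1, 12.1 and 12.6 CPM in the control, from 440 to 457 counts a library. It was at 15.7, 16.5 and 17.2 CPM after 2 h, at 14.8, 14.5 and 13.9 CPM after 4 h and at 12.5, 14.0 and 12.6 CPM after 8 h. The 2 and 4 h libraries lay above the control, while the 8 h libraries overlapped with it. The log2 change against 0 h was 0.43 at 2 h (SE 0.0801, adjusted p = 1.40e-05) and 0.23 at 4 h (SE 0.0814, adjusted p = 0.0112), and 0.09 at 8 h (SE 0.0815, adjusted p = 0.344; edgeR). With scaling by library totals alone the 4 h value was 0.16 and lost its call (adjusted p = 0.0685), while the 8 h value was 0.24 and gained one (adjusted p = 0.00894). From 2 to 8 h the gene fell by 0.34 (edgeR adjusted p = 3.13e-04), and by 0.21 with library totals (adjusted p = 0.021). The step from 2 to 4 h (-0.20) was lost when 2 h replicate 2 (-0.20) or 3 (-0.16), or 4 h replicate 2 (-0.20) or 3 (-0.17), was left out.

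Most genes in these data changed, so the PAL counts are set beside those of all genes. At 2 h all 4 PAL genes were called higher, where 31.6% of the 22063 tested genes were. All 4 were higher at 4 h (35.1% of tested genes) and 3 of 4 at 8 h (36.4% of tested genes). No PAL gene was called lower than the control at 2, 4 or 8 h, against 31.7%, 37.7% and 34.5% of tested genes. All 3 PEG libraries lay above all 3 controls for 4 of 4 genes at 2 h (32.7% of tested genes), 4 of 4 at 4 h (35.8%) and 3 of 4 at 8 h (37.4%). Being higher at all 3 times held for 3 of 4 PAL genes and for 19.2% of tested genes. A call together with a rise of at least 2-fold held for 2 of 4 at 2 h (9.83% of tested genes), 1 of 4 at 4 h (12.9%) and 2 of 4 at 8 h (12.2%). In size, 6.9% of tested genes had a larger log2 change than PAL3 at 2 h and 8.3% a larger one than TPA1, and at 8 h 10.5% exceeded PAL3 and 12% the chromosome 6 gene. The steps between PEG times were lower for 4 of 4 genes from 2 to 4 h (26.9% of tested genes lower), and lower for 2 and higher for 1 from 4 to 8 h (31.7% lower and 33.8% higher of tested genes). From 2 to 8 h, 3 of 4 were lower and 1 higher (32.0% and 31.3% of tested genes). With DESeq2, or with DESeq2 size factors in edgeR, the falls from 2 to 4 h were called for TPA1 alone.

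Levels can be compared between the 4 genes only per length, for which the deposited FPKM (counts divided by coding length and by the library's total) serve. In the control the chromosome 6 gene led with 62.9 ± 0.432 FPKM, followed by PAL3 with 31.0 ± 1.63, TPA1 with 22.2 ± 0.866 and evm.TU.Ft8.3038 with 5.82 ± 0.0933 FPKM (SD, n = 3 throughout). No libraries of neighbours in this order overlapped. At 2 h PAL3 had reached 82.5 ± 0.376 FPKM, next to 79.8 ± 2.14 FPKM for the chromosome 6 gene, and TPA1 52.2 ± 3.18 FPKM. At 4 h PAL3 (71.7 ± 2.06 FPKM) and the chromosome 6 gene (70.2 ± 2.96 FPKM) overlapped and did not differ beyond their spread. At 8 h the chromosome 6 gene stood at 144 ± 4.02 FPKM, PAL3 at 76.4 ± 3.78, TPA1 at 27.9 ± 2.36 and evm.TU.Ft8.3038 at 6.88 ± 0.460 FPKM. In the control 86.6% of tested genes had a lower mean FPKM than the chromosome 6 gene, 74.4% than PAL3, 66.7% than TPA1 and 34.9% than evm.TU.Ft8.3038.

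The summed level of the 4 genes was 122 ± 1.14 FPKM at 0 h, 222 ± 2.18 at 2 h, 179 ± 1.43 at 4 h and 255 ± 1.86 FPKM at 8 h, so it was highest at 8 h with a dip at 4 h between. The ratios to 0 h were 1.82, 1.47 and 2.09, and in TMM-scaled CPM 1.77, 1.52 and 1.89. The make-up of the sum shifted. The chromosome 6 gene held 51.6 ± 0.764% of it at 0 h, 35.9 ± 1.19% at 2 h, 39.2 ± 1.61% at 4 h and 56.4 ± 1.81% at 8 h. PAL3 held 25.4 ± 1.12%, 37.1 ± 0.201%, 40.1 ± 1.13% and 29.9 ± 1.29% at the same times. TPA1 went from 18.2 ± 0.735% through 23.5 ± 1.24% and 17.1 ± 0.570% to 10.95 ± 0.911%. Of the increase in summed FPKM over the control, PAL3 made up 51.3% at 2 h and 71.4% at 4 h, and the chromosome 6 gene 60.8% at 8 h, against 16.8% at 2 h. TPA1 made up 29.8% of the increase at 2 h and 4.30% at 8 h, or 27.8% and 2.43% of that in TMM-scaled CPM. These shares have no test and describe these libraries.

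**Figure D2:**
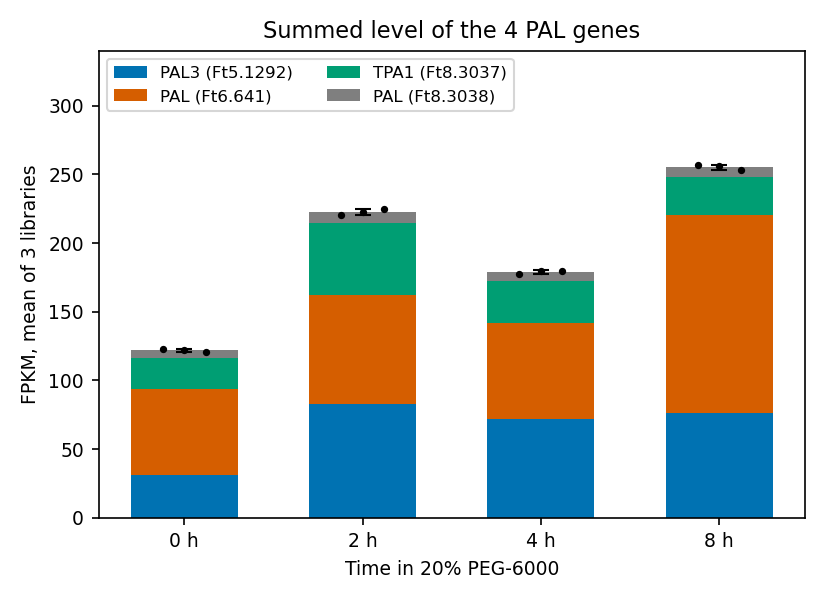
Stacked mean FPKM (vertical axis, from 0) of the 4 PAL genes by time in 20% PEG-6000, each colour a gene; black points are the summed FPKM of single libraries and whiskers 1 SD of the sum over 3 libraries. The sum goes from 122 FPKM at 0 h to 255 FPKM at 8 h, with the chromosome 6 gene (orange) at 144 FPKM at 8 h and TPA1 (green) largest at 2 h.

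Whether the paralogues changed unequally was tested on the ratio of 2 genes within each library, which is free of library scaling. For each of the 6 pairs, an exact permutation test over all 369600 assignments of the 12 libraries to the 4 groups compared the log2 ratio between times, with p adjusted by Benjamini-Hochberg over the 6 pairs. The ratio differed between times for all 6 pairs (adjusted p from 1.95e-04 to 0.00948). The smallest p that this test can give is 6.49e-05, and it was reached by PAL3 against TPA1 and by the chromosome 6 gene against TPA1. With 2 libraries a group, leaving out 1 replicate number at a time, these 2 pairs still passed (adjusted p = 0.0286 each time, exact permutation test). PAL3 against the chromosome 6 gene (0.0571 to 0.103) and against evm.TU.Ft8.3038 (0.0571 to 0.143) did not pass in any of the 3 cases. With 8 libraries the smallest p the test can give is 0.00952 before adjustment. Over all 12 libraries, F (spread between times over spread within them) was 136.8 and 89.0 for these 2 pairs. It was 85.1 and 114.5 for the 2 pairs that still passed, so the lost calls do not rank the pairs by strength of change. The chromosome 6 gene against evm.TU.Ft8.3038 did not pass without replicate 2 (adjusted p = 0.0762) or 3 (0.103), nor TPA1 against evm.TU.Ft8.3038 without replicate 3 (0.103), in the same exact test.

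The ratio of the chromosome 6 gene to TPA1 shifted in opposite directions at 2 and 8 h. The log2 ratio of their CPM was 1.69 ± 0.0637 at 0 h, 0.81 ± 0.123 at 2 h, 1.39 ± 0.104 at 4 h and 2.56 ± 0.159 at 8 h (SD, n = 3). The ratio was thus 0.88 lower than the control at 2 h (SE 0.0798) and 0.86 higher at 8 h (SE 0.0988), with no overlap between those libraries. PAL3 gained on TPA1 by 0.19 at 2 h (SE 0.0786), 0.75 at 4 h (SE 0.0648) and 0.97 at 8 h (SE 0.0868). The 2 h gain was marginal, as the lowest 2 h log2 ratio (0.6945) barely exceeded the highest control ratio (0.6908). PAL3 gained on the chromosome 6 gene by 1.06 at 2 h (SE 0.0528) and 1.05 at 4 h (SE 0.0738). At 8 h that gain was 0.10 (SE 0.0770) and the libraries overlapped with the control. The chromosome 6 gene and evm.TU.Ft8.3038 kept overlapping ratios at 0, 2 and 4 h (differences of -0.09, SE 0.0522, and 0.00, SE 0.0380) and parted by 0.96 at 8 h (SE 0.0396). The consecutive genes TPA1 and evm.TU.Ft8.3038 parted by 0.79 at 2 h (SE 0.0430) and 0.30 at 4 h (SE 0.0611), and by 0.09 at 8 h (SE 0.125) with overlapping libraries. For single times, 3 libraries against 3 cannot give a p under 0.10 in such a test, so none is given.

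**Figure D3:**
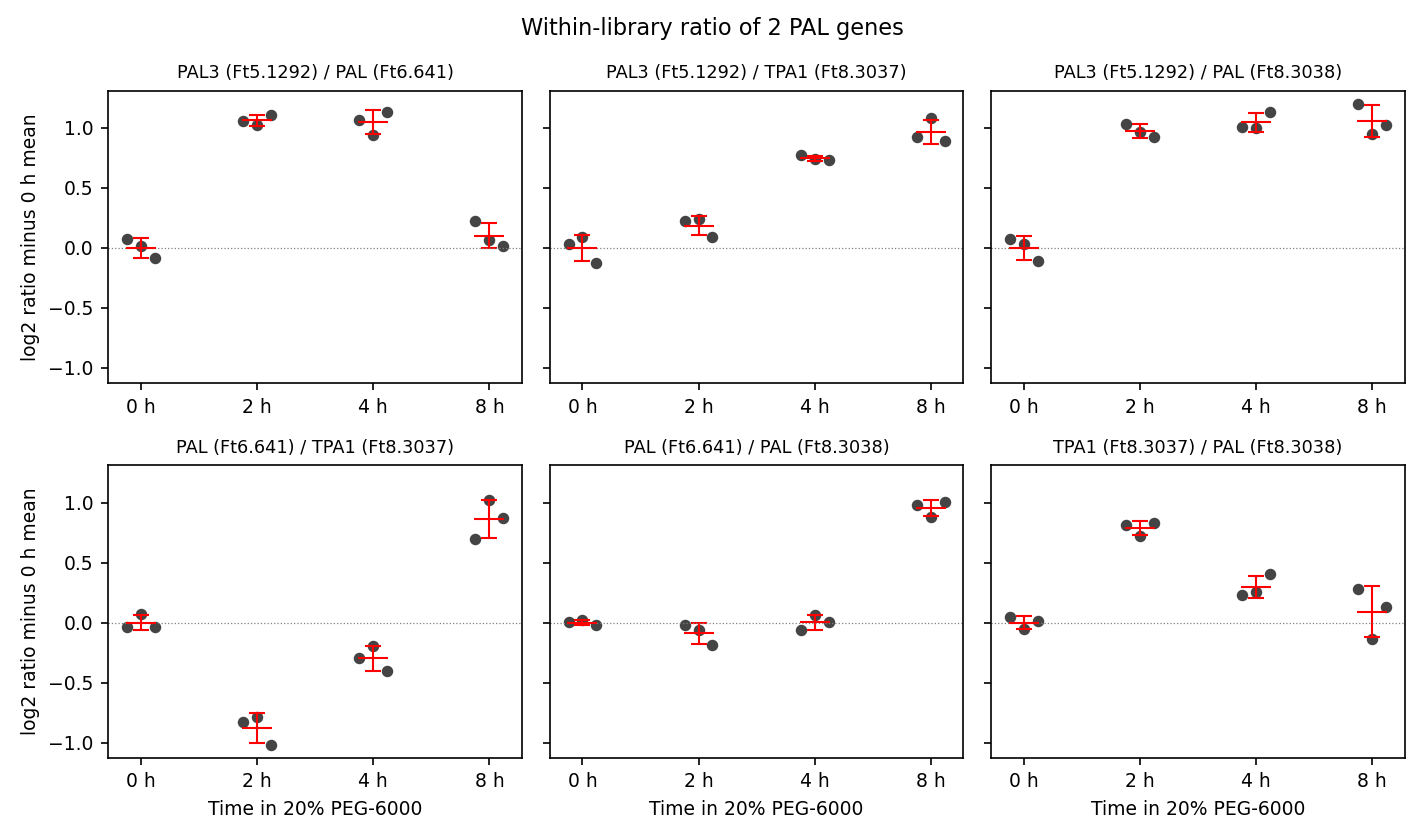
Log2 ratio of 2 PAL genes within a library, minus the mean ratio at 0 h (vertical axis, shared), by time in 20% PEG-6000 for the 6 pairs; points are libraries, red bars the mean of 3 with 1 SD. The ratio of the chromosome 6 gene to TPA1 sits 0.88 below the control at 2 h and 0.86 above it at 8 h, and that of PAL3 to the chromosome 6 gene sits 1.06 and 1.05 above it at 2 and 4 h and 0.10 above it at 8 h.

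PAL works between the enzymes that supply phenylalanine and those that use cinnamate. Counts of these genes stand against the shares of all tested genes called higher and lower than the control, which were 31.6% and 31.7% at 2 h, 35.1% and 37.7% at 4 h, and 36.4% and 34.5% at 8 h. The supply list held 24 genes of the shikimate and arogenate steps, 22 of them tested. At 2 h 9 were higher and 7 lower, at 4 h 7 and 8, and at 8 h 8 and 9, with medians of 0.07, -0.01 and -0.09 on the log2 scale, beside 0.00, -0.04 and 0.03 for all tested genes. The 8 supply genes higher at 8 h are near the 36.4% over all tested genes. SHKB (evm.TU.Ft4.4815) and DAHP1 (evm.TU.Ft3.2768) encode the aldolase of the first shikimate step. SHKB went from 88.3 ± 4.03 CPM at 0 h to 16.5 ± 0.904 CPM at 4 h and was at 65.4 ± 3.06 CPM at 8 h, while DAHP1 fell from 185 ± 4.86 to 78.7 ± 3.91 CPM at 8 h (adjusted p = 5.48e-31 and 1.60e-25, edgeR). ADT1 (evm.TU.Ft4.101), an arogenate dehydratase of the last step to phenylalanine, rose from 27.0 ± 0.382 to 56.6 ± 2.68 CPM at 2 h and 73.3 ± 4.99 CPM at 4 h (log2 change 1.44, edgeR adjusted p = 1.22e-24), and was at 36.5 ± 0.577 CPM at 8 h.

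Cinnamate 4-hydroxylase (C4H), a cytochrome P450, takes the product of PAL to 4-coumarate. Of 9 genes, 5 were tested, and at each of the 3 times 4 were higher and 1 lower, with medians of 1.14 at 2 h, 1.49 at 4 h and 0.33 at 8 h (all tested genes 31.6%, 35.1% and 36.4% higher and 31.7%, 37.7% and 34.5% lower). CYP73A4 (evm.TU.Ft2.5323) rose from 168 ± 8.16 to 333 ± 5.36 CPM at 2 h, and stood at 301 ± 9.01 CPM at 4 h and 217 ± 11.2 CPM at 8 h. CYP73A16 (evm.TU.Ft2.3216) rose 2.39-fold at 2 h and 3.29-fold at 4 h, and 1.17-fold at 8 h. CYP73A14 (evm.TU.Ft8.4110) fell from 60.4 ± 3.32 to 22.2 ± 1.53 CPM at 2 h and 9.61 ± 1.35 CPM at 8 h. From 4 to 8 h all 5 tested C4H genes fell, where 31.7% of all tested genes were called lower and 33.8% higher. Over that step the chromosome 6 PAL gene rose (log2 change 0.82), while with TMM scaling PAL3 (-0.13) and TPA1 (-0.34) were also called lower. The change of evm.TU.Ft8.3038 was -0.14 and not called.

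The 2 genes described as 4-coumarate CoA ligase, which activates coumarate for the later branches, moved apart. Any gene described as ligase-like was left out of this list by rule. 4CL1 (evm.TU.Ft3.946) stood at 40.4 ± 1.86 CPM at 0 h, 105 ± 3.55 at 2 h, 80.1 ± 5.26 at 4 h and 37.7 ± 2.10 CPM at 8 h, where it was not called (edgeR adjusted p = 0.0928). The gene evm.TU.Ft5.1098, described as ligase 2, fell from 44.0 ± 3.56 to 11.6 ± 0.374 CPM at 4 h and stood at 18.6 ± 0.343 CPM at 8 h.

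Chalcone synthase and isomerase open the flavonoid branch, and 11 of their 12 genes were tested. At 2 h 6 were higher and 2 lower, at 4 h 6 and 3, and at 8 h 9 and 1, with medians of 0.56, 0.40 and 1.11. Of all tested genes 31.6%, 35.1% and 36.4% were higher at these times, with medians of 0.00, -0.04 and 0.03. CHS (evm.TU.Ft3.2401) stood at 323 ± 17.6, 393 ± 11.1, 425 ± 3.26 and 699 ± 31.3 CPM at 0, 2, 4 and 8 h. The CHS2 genes evm.TU.Ft3.228 and evm.TU.Ft3.249 rose 12.1-fold and 8.92-fold at 8 h. Of 21 genes of the flavonol steps, 15 were tested, and 6 were higher and 6 lower at 2 h, 4 and 7 at 4 h, and 5 and 9 at 8 h, with medians of 0.06, -0.20 and -0.35. Over all tested genes 31.6%, 35.1% and 36.4% were higher and 31.7%, 37.7% and 34.5% lower at these times. FLS (evm.TU.Ft5.635), a flavonol synthase, rose from 24.9 ± 0.896 to 78.1 ± 3.48 CPM at 8 h, whereas both named CYP75B137 genes (evm.TU.Ft3.40 and evm.TU.Ft3.165), which hydroxylate the B ring of flavonoids, fell to 44.8 ± 2.69 from 169.7 ± 4.88 CPM and to 13.6 ± 1.00 from 49.8 ± 3.50 CPM.

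The lignin monomer steps form the other main branch, and 52 of 67 genes were tested. At 2 h 31 were higher and 12 lower, at 4 h 32 and 12, and at 8 h 19 and 18, with medians of 0.32, 0.46 and 0.03. The 8 h counts are near the shares of all tested genes called higher (36.4%) and lower (34.5%), and the 8 h median equals that of all genes to 2 decimals, whereas 31.6% and 35.1% of all tested genes were higher at 2 and 4 h. The 3 named by the smallest p were the caffeoylshikimate esterase CSE (evm.TU.Ft3.2495), which rose from 29.8 ± 0.480 to 184 ± 6.38 CPM at 2 h and was at 139 ± 5.68 CPM at 8 h, and a pair that fell. CYP98A2 (evm.TU.Ft7.2999), of the P450 family that hydroxylates coumaroyl esters, went from 140.5 ± 9.34 to 8.86 ± 0.632 CPM at 8 h, and HST (evm.TU.Ft2.76), a hydroxycinnamoyltransferase, from 155 ± 6.36 to 20.8 ± 0.609 CPM.

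In Arabidopsis, certain Kelch-repeat F-box proteins bind PAL and mark it for breakdown. Genes described after these Arabidopsis proteins numbered 9, of which 5 were tested. At 2 h 4 were higher and none lower, and at 4 and 8 h all 5 tested genes were higher, with medians of 1.80, 1.88 and 1.52 on the log2 scale. Of all tested genes 31.6%, 35.1% and 36.4% were higher at these times, with medians of 0.00, -0.04 and 0.03. The gene evm.TU.Ft2.842 stood at 172 ± 4.84, 313 ± 5.10, 422 ± 10.5 and 493 ± 21.0 CPM at 0, 2, 4 and 8 h. The gene evm.TU.Ft4.3178 was at 123.1 ± 6.96 CPM at 0 h, 118 ± 5.16 at 2 h, where it was not called (edgeR adjusted p = 0.216), 167 ± 6.98 at 4 h and 189 ± 10.1 CPM at 8 h. The rarer evm.TU.Ft7.4014 rose from 0.355 ± 0.152 to 4.27 ± 0.271 CPM at 4 h. Whether these genes act on PAL in buckwheat is not known from these data, and enzyme amounts were not measured.

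**Figure D4:**
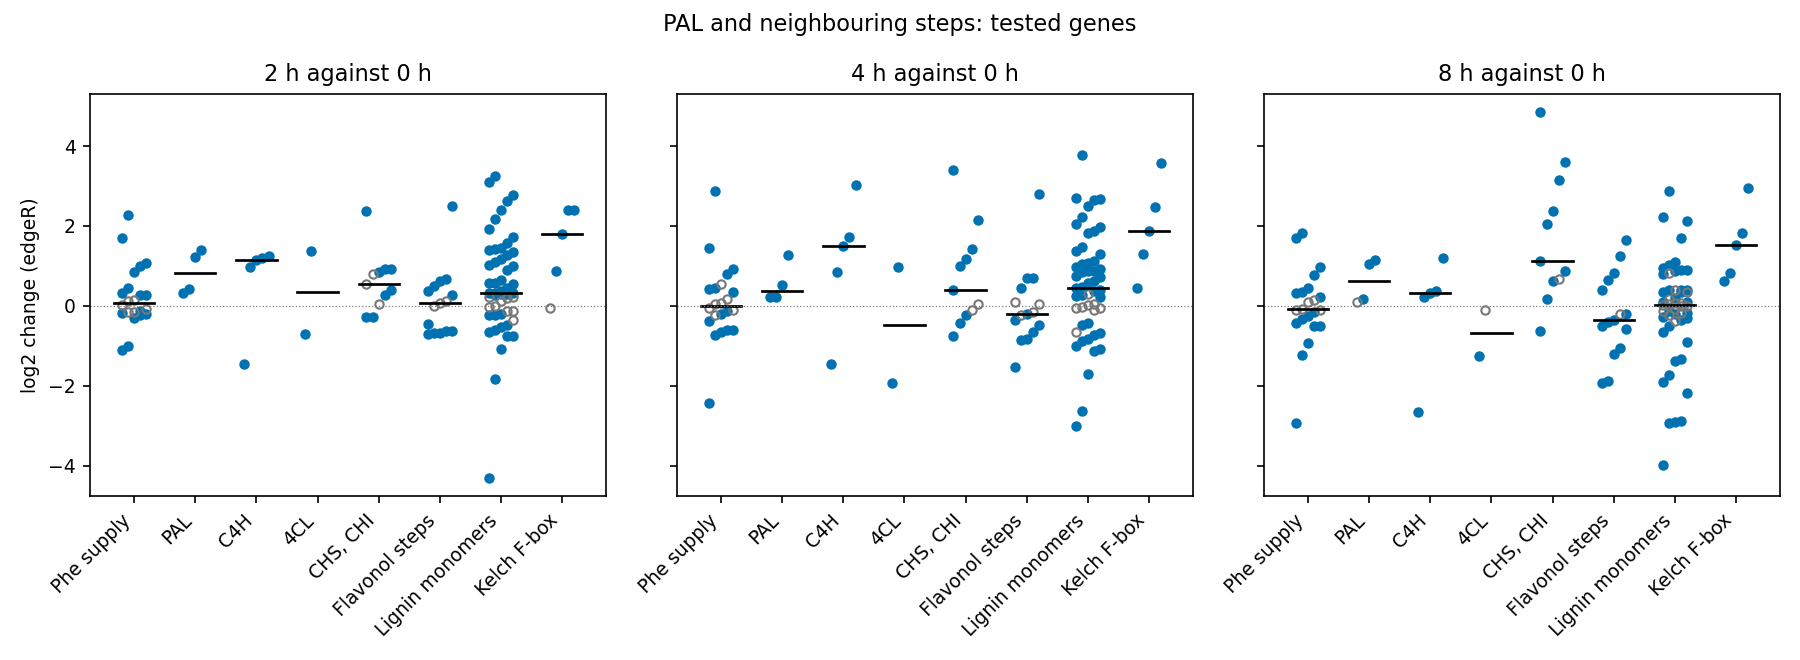
Log2 change against 0 h in the edgeR fit (vertical axis, shared) of every tested gene of phenylalanine supply, PAL, cinnamate 4-hydroxylase (C4H), 4-coumarate CoA ligase (4CL), chalcone synthase and isomerase (CHS, CHI), flavonol and lignin monomer steps and the Kelch F-box proteins, after 2, 4 and 8 h in PEG. Filled points passed the threshold, open points did not, and bars are medians; the C4H median goes from 1.14 at 2 h to 0.33 at 8 h while that of CHS and CHI goes from 0.56 to 1.11.

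Genes with the course most like each PAL gene were sought among 8674 tested genes with a symbol, a description and a mean of at least 10 CPM, by the root mean square difference between the log2 changes at 2, 4 and 8 h. For PAL3 they were LUS1 (evm.TU.Ft7.1042, a lupeol synthase of triterpene synthesis, difference 0.031), TKPR1 (evm.TU.Ft4.774, a tetraketide pyrone reductase, 0.036) and NAC048 (evm.TU.Ft3.5236, a NAC transcription factor, 0.077). For the chromosome 6 gene they were MORF8 (evm.TU.Ft8.2833, an organelle RNA editing factor, 0.016), ICP55 (evm.TU.Ft3.3647, a mitochondrial peptidase, 0.032) and GRXC1 (evm.TU.Ft5.821, a glutaredoxin, 0.071). For TPA1 they were XI-K (evm.TU.Ft1.136, a myosin, 0.081), GALT1 (evm.TU.Ft1.316, a galactosyltransferase, 0.112) and XLG1 (evm.TU.Ft4.4976, a GTP-binding protein, 0.139). For evm.TU.Ft8.3038 they were CRPK1 (evm.TU.Ft3.1331, a protein kinase, 0.035), PRA1B4 (evm.TU.Ft2.6375, 0.036) and PSE1 (evm.TU.Ft3.1176, 0.046). Between the PAL genes themselves the difference ran from 0.487 (TPA1 and evm.TU.Ft8.3038) to 1.03 (PAL3 and evm.TU.Ft8.3038), so no PAL gene was among the nearest of another. Within 0.2 of a PAL gene lay 40 genes for PAL3, 60 for the chromosome 6 gene, 16 for TPA1 and 675 for evm.TU.Ft8.3038, whose changes were small.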

How the data were processed

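Raw read counts per gene and FPKM were deposited by the authors for 26750 genes in 12 libraries. Per the submitters' processing notes the authors used DESeq2, fastp, HISAT2 and HTSeq, with no version or role stated. Which genome build served is not given in the sources used here. For the PAL genes each deposited FPKM equalled count over library total and a single length per gene to within 2.56e-10 (relative), so FPKM carry no TMM scaling. That length was worked out from the counts and FPKM and is taken here as the coding length.

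Counts were tested with the edgeR (4.0.16) quasi-likelihood method in 1 fit of all libraries (R 4.3.3), with TMM scaling, filterByExpr by group (count 10, total 15) and Benjamini-Hochberg adjustment over 22063 genes within each contrast at 0.05. TMM factors ran from 0.936 to 1.10. The SE is the absolute log2 change over the root of F. Ratios used CPM with 0.5 added. Code was tested on simulated data. Alternatives were DESeq2 (1.42.0), its size factors in edgeR, library totals alone, other filters, limma (3.58.1) on log2 FPKM, a replicate block, only the libraries compared, and leaving out each library.

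Named pathway genes are the up to 3 of each list with the smallest p over the PEG times. Genes of lists are text matches in the deposited descriptions. Members, lists and rules were chosen with earlier results of these data known. Depth bounds precision through the counts (440 to 9162 for a PAL gene in a library).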

Additional observations from a re-analysis of the deposited data

Results flagged for a closer look

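Levels that differed between 2 PEG times by the edgeR test of the difference itself are listed here as log2 changes. With untreated seedlings only at 0 h, time in PEG and time of day cannot be told apart in them. From 2 to 4 h the level changed by -0.12 for PAL3 (evm.TU.Ft5.1292), -0.10 for evm.TU.Ft6.641, -0.69 for TPA1 (evm.TU.Ft8.3037) and -0.20 for evm.TU.Ft8.3038. From 4 to 8 h it changed by -0.13 for PAL3, 0.82 for evm.TU.Ft6.641 and -0.34 for TPA1. From 2 to 8 h it changed by -0.24 for PAL3, 0.72 for evm.TU.Ft6.641, -1.03 for TPA1 and -0.34 for evm.TU.Ft8.3038. Across these the chromosome 6 gene was the one whose level rose from 2 to 8 h, with all 3 libraries of 8 h above all 3 of 2 h.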

How the results depend on the processing

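All 4 rises at 2 h, the rises of PAL3, evm.TU.Ft6.641 and TPA1 at 4 h, those of PAL3 and evm.TU.Ft6.641 at 8 h and all 4 changes from 2 to 8 h kept their direction and call under all alternatives run (up to 21 a result). Scaling by library totals moved the median of all genes by 0.152 at 8 h against 0 h and by 0.218 from 4 to 8 h. FPKM carry that scaling too. The change of PAL3 from 4 to 8 h was 0.0911 with library totals, 0.0888 with log2(FPKM + 1) and 0.0899 with log2(FPKM + 0.1), and -0.0902 with the stricter filter (no call). For evm.TU.Ft8.3038 the same step was 0.0743, 0.0654 and 0.0739, its 4 h change 0.1643, 0.1408 and 0.161 (no call) and its 8 h change 0.2386, 0.2062 and 0.2349 (called). TPA1 from 4 to 8 h was -0.1268 and -0.1308 with FPKM (no call). PAL genes called lower in that step then numbered 1 with library totals, 1 with the stricter filter and 0 with FPKM. From 2 to 4 h, calls were lost with DESeq2 size factors for PAL3 (-0.0941), evm.TU.Ft6.641 (-0.0769) and evm.TU.Ft8.3038 (-0.1738), with DESeq2 likewise (-0.0941, -0.0769 and -0.1739), and for the last without the low-count filter (-0.1958), leaving 1 gene called lower with either DESeq2 setting. The cause was not tested.

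Leaving out single libraries gave these ranges: TPA1 at 8 h, 0.1133 to 0.2416; from 2 to 4 h, PAL3 -0.1355 to -0.0968, evm.TU.Ft6.641 -0.1348 to -0.0752 and evm.TU.Ft8.3038 -0.2284 to -0.164, with 2 to 4 genes called lower; from 4 to 8 h, PAL3 -0.1716 to -0.0866, with 1 to 2 called lower. Leaving out a replicate number, adjusted p for the pair ratios ranged from 0.0571 to 0.103 (PAL3 and evm.TU.Ft6.641), 0.0571 to 0.143 (PAL3 and evm.TU.Ft8.3038), 0.0381 to 0.103 (evm.TU.Ft6.641 and evm.TU.Ft8.3038) and 0.0381 to 0.103 (TPA1 and evm.TU.Ft8.3038), by the exact permutation test. With 8 libraries that test cannot give a p under 0.00952 before adjustment. In CPM, not per length, shares were 36.84% for PAL3 at 2 h, 53.18% and 37.57% for evm.TU.Ft6.641 at 0 and 2 h, 16.32%, 21.33%, 15.41% and 9.77% for TPA1 and 5.633%, 4.273%, 4.335% and 3.167% for evm.TU.Ft8.3038 at 0, 2, 4 and 8 h. No shared effect of replicate number was seen in deviations from group means. In these, 18 same-number pairs correlated between -0.046 and 0.044, and 36 other-number pairs between -0.055 and 0.054. Such correlations cannot tell whether libraries were paired by design. The replicate block changed no PAL call (4 of 4 higher at 2 h, 3 of 4 at 8 h) and gave 13893 genes called at 2 h, against 13954 without it.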

Other observations

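The genes listed nearest to the PAL genes by identifier number, where numbers between may be missing, were looked at after the values were seen, with these edgeR log2 changes. Beside PAL3, ELF6 (evm.TU.Ft5.1291, a histone demethylase) changed by -0.24, -0.27 and -0.52 on the log2 scale at 2, 4 and 8 h, while the values of SSU1 (evm.TU.Ft5.1295), the next number listed above PAL3, were 0.01, -0.15 and 0.07, with a call at 4 h only. Beside evm.TU.Ft6.641, WAV3 (evm.TU.Ft6.642, a ubiquitin ligase) fell from 50.2 ± 0.916 to 10.6 ± 1.00 CPM at 8 h (SD, n = 3), while the PAL gene rose. The gene listed before it, evm.TU.Ft6.637, had too few counts to be tested. On either side of the chromosome 8 pair, EIN2 (evm.TU.Ft8.3036, of ethylene signalling) changed by -0.59, -0.45 and -0.58 and ADK2 (evm.TU.Ft8.3039, an adenosine kinase) by 0.13, -0.37 and -0.44.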
